A study of Mus musculus with 12 samples.

Results

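The 6 genes described here encode the neutrophil-attracting chemokines Cxcl1, Cxcl2, Cxcl3 and Cxcl5 and the colony-stimulating factors Csf2 and Csf3, taken by their symbols from a count table of 22298 named genes. They were measured by RNA sequencing in 4T1, a mouse mammary carcinoma cell line of BALB/c origin. The cells carried Cop1 sgRNA1, Cop1 sgRNA2 or, as controls, a guide to the neutral locus Rosa26, and each population received IFNγ at 20 ng/ml for 24 hours or vehicle. The 6 groups were therefore Cop1 sgRNA1 with IFNγ, Cop1 sgRNA2 with IFNγ, Rosa26 with IFNγ, Cop1 sgRNA1 with vehicle, Cop1 sgRNA2 with vehicle and Rosa26 with vehicle, each with 2 libraries. Cop1 encodes an E3 ubiquitin ligase, and the study's design text sets Cop1-intact against Cop1-loss cells in their response to IFNγ. Whether each guided population was a pool or a clone, and where in Cop1 the guides cut, is not given in the sources used here. Nothing in the labels says that the libraries of a group came from separate cultures, so p-values measure the spread between libraries, which may be technical.

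The 4 chemokines belong to the CXC family and carry a glutamate-leucine-arginine motif ahead of their first cysteines. They bind the receptor Cxcr2 on neutrophils and draw these cells along a gradient. Csf3, also called G-CSF, drives the production of neutrophils in the bone marrow and their release, and Csf2, also called GM-CSF, acts on granulocyte and macrophage precursors and on mature myeloid cells. Tumour cells can secrete all of these proteins, and 4T1 tumours are known for the raised blood neutrophil counts of the mice that bear them. Transcription of these genes is commonly induced through NF-kB and C/EBP factors, and their short-lived mRNAs are broken down by AU-rich-element-binding proteins and RNases.

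Library totals lay between 19378070 and 32609717 counts. Cop1 itself averaged 60.4, 32.95 and 81.9 CPM (counts scaled to library size) in the Cop1 sgRNA1, Cop1 sgRNA2 and Rosa26 groups with IFNγ, and 61.1, 34.6 and 94.0 CPM in the same populations with vehicle. The Cop1 mRNA was called lower with each guide than with Rosa26 under both treatments, and lower with sgRNA2 than with sgRNA1. When the libraries of each population were summed and the guides stood as replicates, Cop1 itself was not called lower under either treatment. Of 8 mammary epithelial markers, 7 had a median of at least 1 CPM, and Krt5 had 0 counts. Their summed level was 3298 to 3393 CPM in the Cop1-guide libraries against 2910.4 and 2911 CPM in the Rosa26 libraries with IFNγ, and 3996 to 4052 CPM against 3651 and 3766 CPM with vehicle. Of the 7 tested, 4 were called higher and 2 lower in Cop1-guide cells with IFNγ, and 3 higher and 1 lower with vehicle. Over all genes tested, 19.8% were called higher and 20.7% lower with IFNγ, and 16.6% and 19.2% with vehicle. The share of all genes called lower by IFNγ was 16.1% in Cop1-guide cells and 16.2% in Rosa26 cells. IFNγ lowered 6 of the 7 in each of the Cop1-guide and Rosa26 comparisons, counts that became 4 and 3 when the libraries of each population were summed and the guides stood as replicates. The 9 stromal markers summed to 16.4 to 17.6 CPM in the Cop1-guide libraries against 17.5 and 17.9 CPM in the Rosa26 libraries with IFNγ, and 17.7 to 23.5 CPM against 23.5 and 24.7 CPM with vehicle. Of 3 tested, 2, Pdgfra and Col1a1, were called lower in Cop1-guide cells with vehicle, neither of them without Rosa26 vehicle replicate 2 or with the guides as replicates. The Pdgfra call was also lost without Cop1 sgRNA1 vehicle replicate 1 and the Col1a1 call without Rosa26 vehicle replicate 1. Among 16 leukocyte markers, 8 had 0 counts in all 12 libraries, including the neutrophil granule genes Mpo and Elane, and the pan-leukocyte gene Ptprc had 15 counts in all. The summed level of the leukocyte list was 20.6 to 24.4 CPM in the Cop1-guide libraries against 32.6 to 33.7 CPM in the Rosa26 libraries with IFNγ, and 21.7 to 25.04 CPM against 28.9 to 29.2 CPM with vehicle. Most of that sum came from Cd14 and Cd68, with median levels of 16.3 and 7.64 CPM. The part of these 3 marker lists in the results below was not tested.

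The receptors of these ligands were at or near 0 in the 4T1 cells. Cxcr1, Csf2ra and Csf3r had 0 counts in every library, which allows up to 3 counts, or 0.0920 to 0.155 CPM per library. Cxcr2 had 13 counts over the 12 libraries, and Csf2rb, the signalling chain shared by the Csf2 receptor, had 83. Of the 7 receptors listed, Csf2rb was the 1 that entered the tests.

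The 4 chemokine genes lie on the plus strand within 1 cluster on chromosome 5 of GRCm38. Cxcl5 starts at 90759360 and ends at 90761624, Cxcl3 spans 90786103 to 90789600, Cxcl1 spans 90891241 to 90893115, and Cxcl2 spans 90903871 to 90905938. The chemokine genes between them, Ppbp, Pf4 and Cxcl15, had 255, 2 and 2 counts over all libraries, so counts within the cluster were uneven. Csf2 and Csf3 lie far apart on chromosome 11, Csf2 on the minus strand from 54247271 to 54249667, where it overlaps the annotated gene Gm12223, and Csf3 on the plus strand from 98701263 to 98703629. The strand setting of the counting is not given in the sources used here, so reads in the stretch shared by Csf2 and Gm12223 may not have been told apart. The longest run of identical bases between the transcripts of Cxcl2 and Cxcl3 was 110, against 23 for Cxcl1 with either of them. How reads matching more than 1 gene were counted is not given, and part of the Cxcl2 and Cxcl3 counts could belong to the other gene.

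The promoter stretches of Cxcl1, Cxcl2 and Cxcl3 are shown because these neighbours rose together with IFNγ and differed from Rosa26 in opposite directions in Cop1-guide cells with vehicle. They run from 150 to 22 bases before the RefSeq start, 5′ to 3′ on the plus strand of GRCm38.p6, at chr5:90891095-90891223, chr5:90903749-90903877 and chr5:90785951-90786079. Capitals mark matches, on either strand, to an NF-kB-type motif, spelled GGG, any 2 bases and TTTCC, and to the TATA-like letters ATAAAAGG.
Cxcl1: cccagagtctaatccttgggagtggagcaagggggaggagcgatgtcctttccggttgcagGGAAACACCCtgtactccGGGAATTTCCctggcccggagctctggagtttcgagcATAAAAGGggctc
Cxcl2: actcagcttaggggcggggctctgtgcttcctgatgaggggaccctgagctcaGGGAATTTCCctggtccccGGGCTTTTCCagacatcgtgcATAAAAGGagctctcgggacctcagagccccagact
Cxcl3: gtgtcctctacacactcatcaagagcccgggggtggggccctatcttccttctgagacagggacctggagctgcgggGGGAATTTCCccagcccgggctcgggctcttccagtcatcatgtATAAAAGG
Within the windows from 250 bases before to 50 after the start, Cxcl1 held the letters GGGAATTTCC at position -71 from its start and a second match on the opposite strand, Cxcl2 held 2 matches, GGGAATTTCC and GGGCTTTTCC, and Cxcl3 held GGGAATTTCC at position -73. A match to the NF-kB-type motif occurred in 1.63% of 32851 RefSeq promoter windows, and a TATA-like match in 1.76%. None of the 3 windows held TTGCNNAA (10.8% of all windows) or TGANTCA (7.81%), letters bound by C/EBP and AP-1 factors, on either strand. These matches describe letters in the windows and are not evidence of binding. RefSeq windows were at hand for 4 of the 6 genes, and that of Csf2 held no NF-kB-type match and 1 C/EBP-type match. The Csf2 window spans chr11:54249850-54250149, wholly upstream of the annotated 5′ end of this minus-strand gene at 54249667. The bases next to that end were therefore not searched.

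Levels of the 6 genes were far apart, with ranks between 68 and 10088 of 11736 coding genes ordered by CPM per kilobase (kb). Per kilobase of the longest coding transcript, Cxcl5 led in Rosa26 cells with vehicle at 442 ± 9.39 CPM per kb (SD, n = 2), followed by Csf3 at 324 ± 9.23 and Cxcl1 at 310 ± 8.73, the last pair separated by less than the sum of their SDs. Cxcl3 stood at 17.4 ± 0.236, Csf2 at 1.65 ± 0.649 and Cxcl2 at 0.978 ± 0.198 CPM per kb, and the last pair again lay within the sum of their SDs. With IFNγ the order in Rosa26 cells was Cxcl1 at 806 ± 35.0, Cxcl5 at 773 ± 15.9 and Csf3 at 738 ± 6.80 CPM per kb. The Cxcl1 and Cxcl5 values lay within the sum of their SDs, and these 3 genes ranked 68, 74 and 79. In all 4 Cop1-guide groups Cxcl5 was the lowest of these 3 abundant genes: it ranked 172 and 190 with sgRNA1 and sgRNA2 in IFNγ, where Csf3 ranked 86 and 117 and Cxcl1 104 and 127. The length of Cxcl2 was taken from a transcript of 1859 bases, while its shortest coding transcript has 1109 bases, so its place beside Csf2 depends on that choice.

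**Figure D1:**
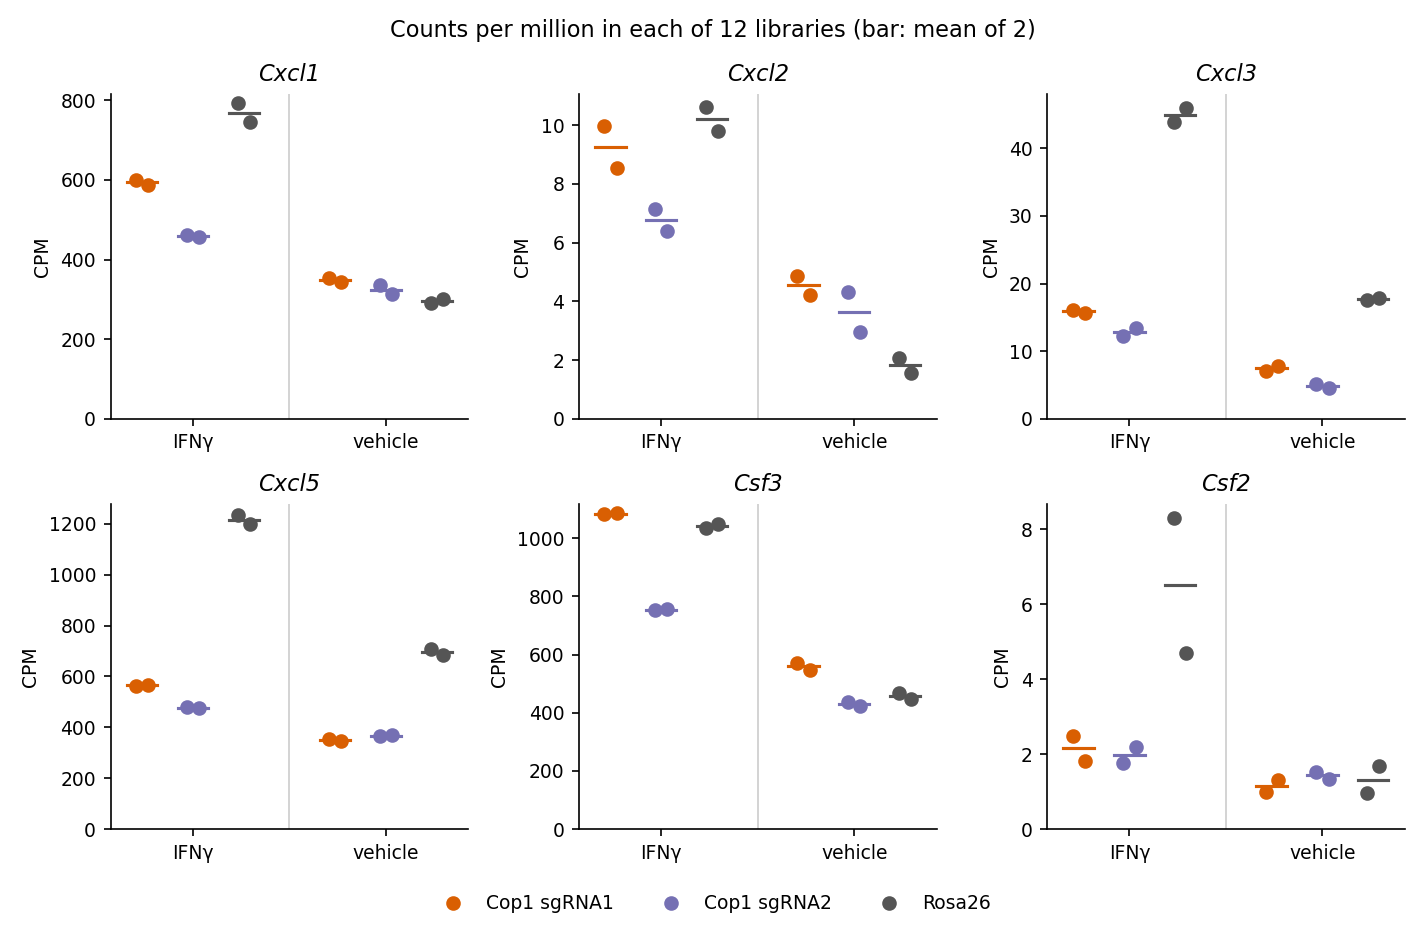
CPM of the 6 genes in each library (points, 2 per group) on linear axes from 0, with bars at the group means and Cop1 sgRNA1, Cop1 sgRNA2 and Rosa26 from left to right under IFNγ and then vehicle. Cxcl5 and Cxcl3 sit lower with both Cop1 guides under either treatment, while Cxcl1 and Cxcl2 sit above Rosa26 with vehicle and Cxcl1 below it with IFNγ.

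The first comparison set the mean of both Cop1-guide groups against Rosa26 under IFNγ. All 6 genes were lower in the Cop1-guide cells (adjusted p under 0.05), against 20.7% of the 11904 genes tested that were called lower. The median log2 change of the 6 was -0.89, and that of all genes tested was -0.00450. Each gene is given below with its value in every library before the test.

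Cxcl5 had 564 and 566 CPM with sgRNA1 and 479 and 476 CPM with sgRNA2, against 1234 and 1199 CPM with Rosa26. Every Cop1-guide library lay below both Rosa26 libraries, and the log2 change was -1.23 ± 0.023 (SE, adjusted p 2.2e-35), or 0.427-fold. Cxcl3, a less studied chemokine of the same receptor, had 16.1 and 15.7 CPM with sgRNA1 and 12.3 and 13.4 CPM with sgRNA2, against 43.9 and 46.0 CPM with Rosa26. Its groups did not overlap either, and its log2 change of -1.65 ± 0.078 (adjusted p 4.83e-21) came to 0.318-fold. Cxcl1, also called KC, had 600.5 and 588 CPM with sgRNA1 and 463 and 456 CPM with sgRNA2, against 791 and 744 CPM with Rosa26. The 3 groups were separate, with sgRNA2 lowest, and the log2 change was -0.56 ± 0.027 (adjusted p 1.41e-20). Cxcl2, also called MIP-2, had 9.95 and 8.53 CPM with sgRNA1 and 7.15 and 6.41 CPM with sgRNA2, against 10.6 and 9.80 CPM with Rosa26. Here sgRNA1 overlapped Rosa26 and sgRNA2 lay below both, and the log2 change of -0.37 ± 0.14 was the least certain of the 6 (adjusted p 0.0353). The Cxcl2 call did not hold with DESeq2 (adjusted p 0.0864), nor without Rosa26 IFNγ replicate 1 (0.229) or 2 (0.0775), Cop1 sgRNA1 IFNγ replicate 2 (0.106) or Cop1 sgRNA2 IFNγ replicate 2 (0.0843).

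Of the growth factors under IFNγ, Csf2 had 2.49 and 1.83 CPM with sgRNA1 and 1.76 and 2.21 CPM with sgRNA2, against 8.32 and 4.70 CPM with Rosa26, the last pair resting on 195 and 107 counts. All 4 Cop1-guide libraries were below both Rosa26 libraries, which themselves lay far apart, and the log2 change was -1.65 ± 0.23 (adjusted p 1.35e-07). Csf3 had 1082 and 1086 CPM with sgRNA1 and 753 and 757 CPM with sgRNA2, against 1036 and 1049.6 CPM with Rosa26. The guides lay on opposite sides of Rosa26: the log2 change was 0.06 ± 0.027 with sgRNA1 (adjusted p 0.104) and -0.47 ± 0.027 with sgRNA2 (adjusted p 1.67e-17), so that the mean change of -0.21 ± 0.023 (adjusted p 1.55e-09) averages unlike guides. When the libraries of each population were summed and the guides stood as replicates, the calls of Cxcl3, Cxcl5 and Csf2 held and those of Cxcl1 (adjusted p 0.0834), Cxcl2 (0.314) and Csf3 (0.750) did not.

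With vehicle the Cop1-guide cells differed from Rosa26 in both directions. Cxcl2, Cxcl1 and Csf3 were higher and Cxcl3 and Cxcl5 lower, 3 and 2 of the 6, against 16.6% of genes called higher and 19.2% called lower. The median log2 change of the 6 was 0.03, beside -0.01 for all genes tested. The values for each guide are drawn in the plot of Cop1-guide changes.

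**Figure D2:**
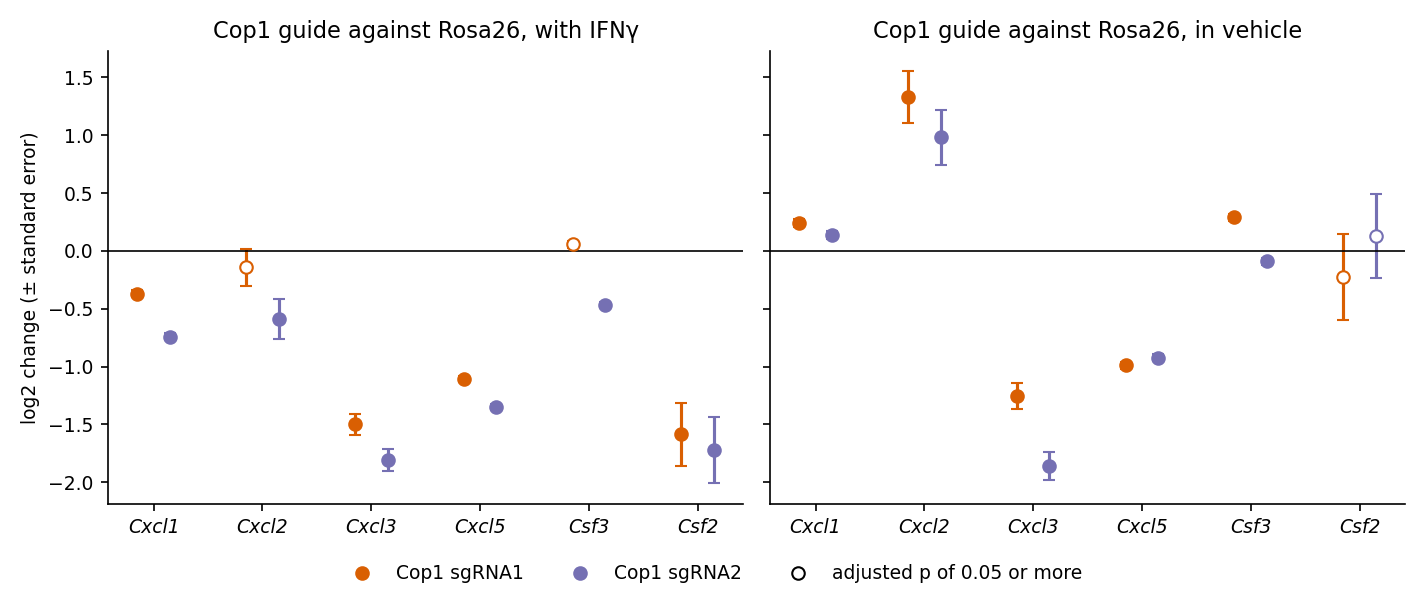
Log2 change against Rosa26 (y axis, bars ± SE) for each gene (x axis) and guide, under IFNγ and under vehicle, with filled points called and open points not called. Cxcl3 and Cxcl5 are lower with both guides under either treatment, Cxcl1 lies below 0 with IFNγ and above 0 with vehicle, and Csf3 differs between the guides.

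Cxcl5 had 354 and 347 CPM with sgRNA1 and 366 and 369 CPM with sgRNA2, against 707 and 686 CPM with Rosa26, a log2 change of -0.96 ± 0.023 (adjusted p 6.51e-31). Cxcl3 had 7.02 and 7.89 CPM with sgRNA1 and 5.09 and 4.64 CPM with sgRNA2, against 17.5 and 17.8 CPM with Rosa26, a log2 change of -1.56 ± 0.097 (adjusted p 6.85e-17). Every Cop1-guide library lay below both Rosa26 libraries for either gene. Cxcl2 went the other way, with 4.88 and 4.23 CPM with sgRNA1 and 4.33 and 2.95 CPM with sgRNA2, against 2.08 and 1.56 CPM with Rosa26. The guides overlapped each other and lay above Rosa26, and the log2 change was 1.16 ± 0.21 (adjusted p 1.62e-05) on 85 counts over both Rosa26 libraries. Cxcl1 had 355 and 344 CPM with sgRNA1 and 335 and 314 CPM with sgRNA2, against 289.7 and 301 CPM with Rosa26. Its groups were separate, but the step was small at 0.19 ± 0.029 (adjusted p 1.07e-06), and with the guides as replicates it was not called (adjusted p 0.517).

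Csf3 with vehicle had 572 and 548 CPM with sgRNA1 and 437 and 423 CPM with sgRNA2, against 467 and 449 CPM with Rosa26. It was higher with sgRNA1, by 0.29 ± 0.028 (adjusted p 3.1e-11), and lower with sgRNA2, by -0.09 ± 0.028 (adjusted p 0.0128). The mean of both guides, 0.10 ± 0.024 (adjusted p 0.00116), was not called without Rosa26 vehicle replicate 2 (0.0981) or with the guides as replicates (0.859). The sgRNA2 step was not called when the fit held only the groups compared (0.0734), nor without Rosa26 vehicle replicate 1 (0.234) or Cop1 sgRNA2 vehicle replicate 2 (0.147). Csf2 had 0.981 and 1.32 CPM with sgRNA1 and 1.54 and 1.34 CPM with sgRNA2, against 0.956 and 1.69 CPM with Rosa26. These groups overlapped, and the log2 change of -0.05 ± 0.32 had a 95% interval of -0.67 to 0.58 (adjusted p 0.929). The Rosa26 libraries held 23 and 38 counts, and a change within that interval in either direction remains possible.

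**Figure D3:**
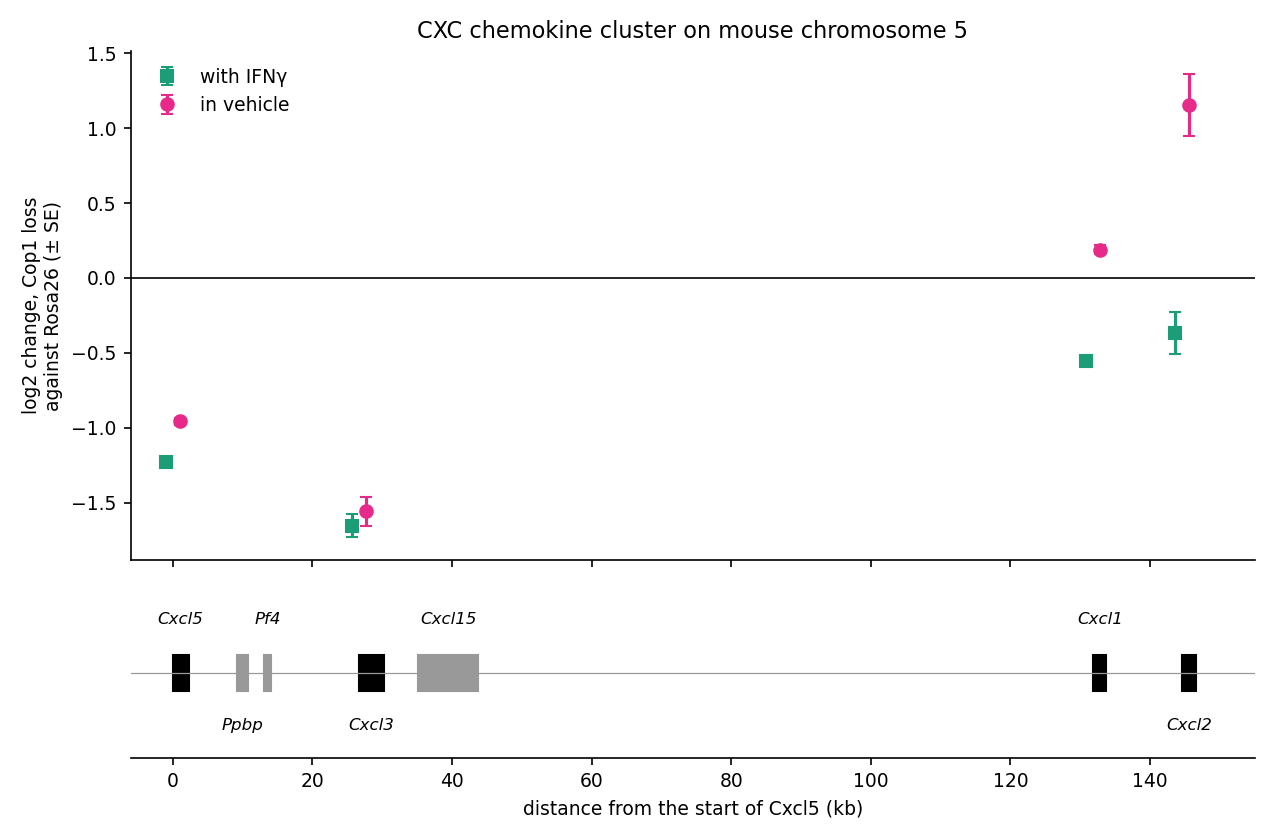
Log2 change of the 4 chemokine genes in Cop1-guide cells against Rosa26 (y axis, bars ± SE) by distance from the start of Cxcl5 in kb (x axis), under IFNγ and vehicle, with the points of each treatment drawn slightly apart and the genes of the cluster drawn to scale underneath. Cxcl5 and Cxcl3, at 0 and 26.7 kb, are lower under both treatments, and Cxcl1 and Cxcl2, at 132 and 145 kb, are higher with vehicle and lower with IFNγ.

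The chemokines that were higher and lower with vehicle thus lay at opposite ends of the cluster, as the map of changes along the cluster shows. This rests on 4 genes and is a description. Both guide comparisons share the same Rosa26 libraries, so like values for sgRNA1 and sgRNA2 are not independent.

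IFNγ raised all 6 genes in Cop1-guide cells, where 18.1% of genes tested were called higher, and all 6 in Rosa26 cells, where 16.6% were. The median log2 change of the 6 was 0.79 in Cop1-guide cells and 1.36 in Rosa26 cells, with medians over all genes of -0.01 in each. In Rosa26 cells Cxcl2 rose by 2.48 ± 0.21 (adjusted p 1.79e-13) and Csf2 by 2.31 ± 0.30 (3.05e-08) on the log2 scale, the steepest of the set. Cxcl1 rose by 1.38 ± 0.033 (1.09e-32), Cxcl3 by 1.35 ± 0.091 (3.35e-16), Csf3 by 1.19 ± 0.028 (8.87e-33) and Cxcl5 by 0.80 ± 0.027 (4.98e-27). In linear terms Cxcl1 was 1.55-fold higher with IFNγ in Cop1-guide cells and 2.60-fold higher in Rosa26 cells.

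The responses differed between the populations for 5 of the 6 genes, all smaller in Cop1-guide cells, where 2.36% of all genes tested had a difference called in that direction. The difference of the log2 responses, Cop1-guide minus Rosa26, was -1.61 ± 0.39 for Csf2 (adjusted p 0.00796), -1.52 ± 0.25 for Cxcl2 (5.09e-05), -0.74 ± 0.040 for Cxcl1 (1.61e-17), -0.30 ± 0.034 for Csf3 (1.47e-08) and -0.27 ± 0.033 for Cxcl5 (1.36e-07). Cxcl3 was the exception at -0.10 ± 0.13 (adjusted p 0.765), with a 95% interval of -0.34 to 0.15: it rose by 1.251 in Cop1-guide cells and by 1.35 in Rosa26 cells from starting levels that differed. The Csf2 difference was not called without Rosa26 IFNγ replicate 1 (-1.14, adjusted p 0.165) or Rosa26 vehicle replicate 1 (-1.24, 0.114). With the guides as replicates the sizes stayed near these values, but no gene of the 12595 then tested was called, 563 having an unadjusted p under 0.05, and the unadjusted p was 0.00108 for Cxcl2, 0.00149 for Csf2, 0.0179 for Cxcl1, 0.0656 for Cxcl5 and 0.513 for Csf3. In that fit each Rosa26 group is a lone sample assumed to vary like the guide populations.

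**Figure D4:**
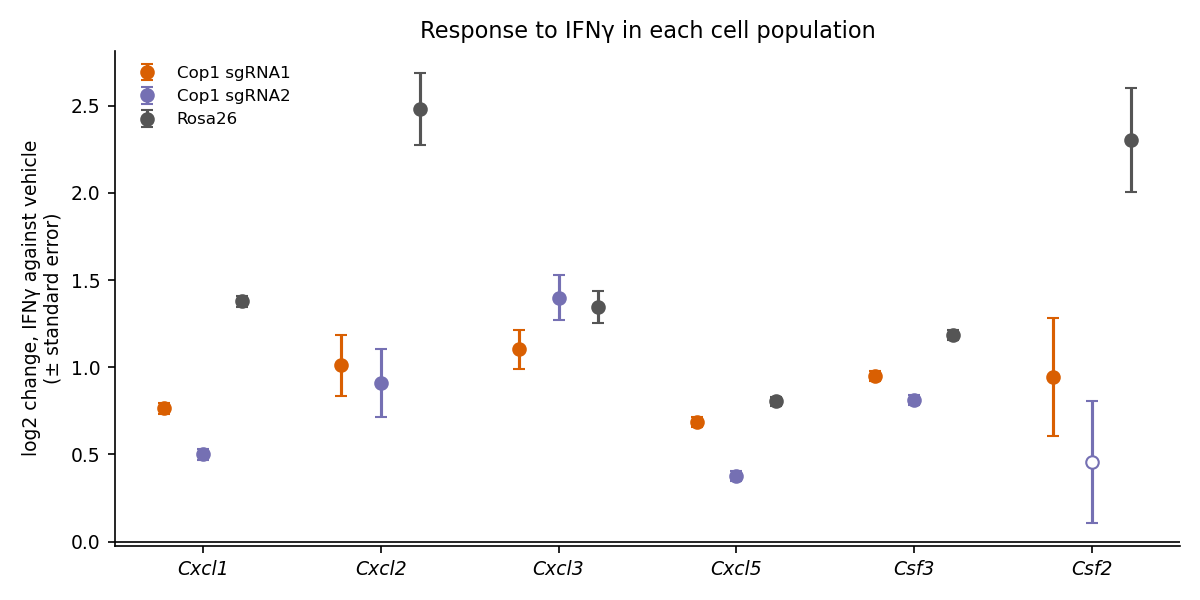
Log2 change with IFNγ against vehicle (y axis, bars ± SE) for each gene (x axis) in Cop1 sgRNA1, Cop1 sgRNA2 and Rosa26 cells, with filled points called and open points not called. The Cop1-guide points lie below Rosa26 for every gene except Cxcl3, where sgRNA2 reaches 1.40 beside 1.35 in Rosa26 cells.

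By guide, IFNγ raised Cxcl1 by 0.77 with sgRNA1 and 0.50 with sgRNA2 on the log2 scale, Cxcl2 by 1.01 and 0.91, Cxcl3 by 1.103 and 1.40, Cxcl5 by 0.69 and 0.38, and Csf3 by 0.95 and 0.81 in the same order, each called, where 12.5% and 14.2% of genes tested were called higher. The Csf2 value was 0.95 ± 0.34 with sgRNA1 (adjusted p 0.0382) and 0.46 ± 0.35 with sgRNA2 (0.383). The sgRNA1 call did not hold with DESeq2 (0.0754) or without Cop1 sgRNA1 vehicle replicate 1 (0.300) or 2 (0.0542) or Cop1 sgRNA1 IFNγ replicate 1 (0.313). Over both guides Csf2 was called at 0.70 ± 0.24 (adjusted p 0.0221), but not without Cop1 sgRNA1 vehicle replicate 1 (0.113), Cop1 sgRNA2 vehicle replicate 2 (0.0631), Cop1 sgRNA1 IFNγ replicate 1 (0.114) or Cop1 sgRNA2 IFNγ replicate 2 (0.0918). With the guides as replicates the IFNγ calls of Csf3 in Cop1-guide cells (adjusted p 0.129) and Rosa26 cells (0.161), and of Csf2 in Cop1-guide cells (0.0749), were not made, and the other calls held.

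Because Cxcl1 and Cxcl5 are both abundant, their balance could be read within each library, where depth and scaling cancel. The ratio of Cxcl1 to Cxcl5 counts was 1.06 and 1.04 in the sgRNA1 libraries and 0.965 and 0.959 in the sgRNA2 libraries, against 0.641 and 0.621 in the Rosa26 libraries, under IFNγ. With vehicle it was 1.00 and 0.990 in the sgRNA1 libraries and 0.916 and 0.851 in the sgRNA2 libraries, against 0.410 and 0.439 in the Rosa26 libraries. All 8 Cop1-guide libraries lay above all 4 Rosa26 libraries. With IFNγ the ratio moved by less than the difference between the guides in Cop1-guide cells, and by more than that in Rosa26 cells.

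**Figure D5:**
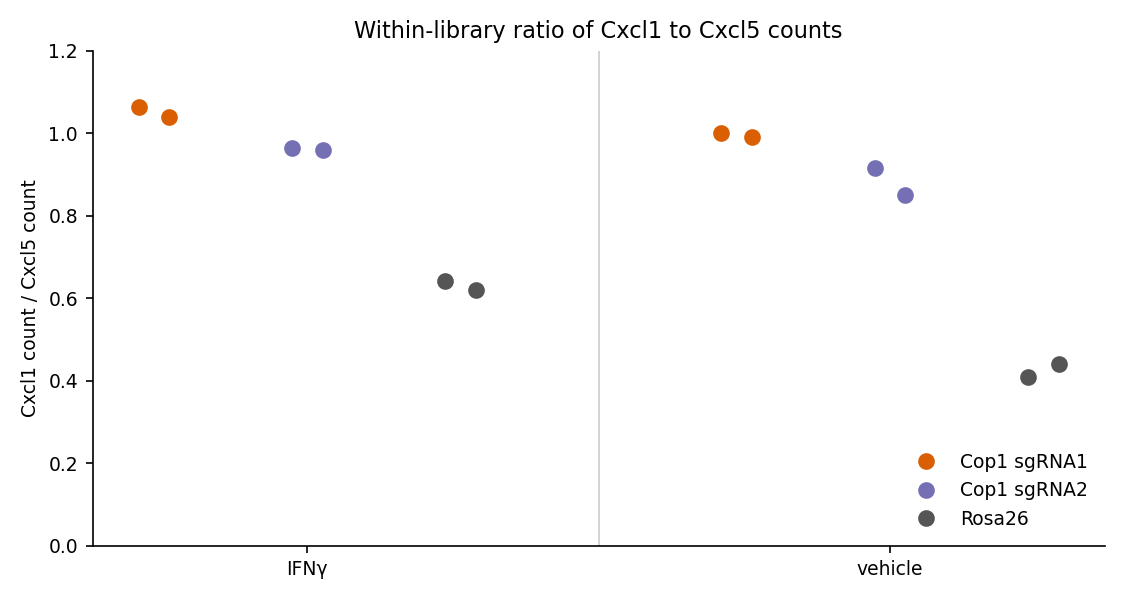
Ratio of Cxcl1 to Cxcl5 counts within each library (points), with Cop1 sgRNA1, Cop1 sgRNA2 and Rosa26 from left to right under IFNγ and then vehicle. The Cop1-guide libraries lie between 0.851 and 1.06, and the Rosa26 libraries between 0.410 and 0.641.

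Per kilobase, Cxcl1 made up 60.0% to 62.4% of the summed level of the 4 chemokines in the Cop1-guide libraries with IFNγ, against 49.0% to 49.9% with Rosa26. With vehicle its share was 57.8% to 61.4% in the Cop1-guide libraries, against 39.4% to 41.1% with Rosa26. The summed level itself was 798 to 1010 CPM per kb in Cop1-guide libraries with IFNγ, against 1593 and 1663 with Rosa26, and 571 to 607 CPM per kb with vehicle, against 770.5 and 771 with Rosa26. The sum was therefore lower with the Cop1 guides under both treatments, although Cxcl1 and Cxcl2 were higher with vehicle. The count ratio of Cxcl2 to Cxcl3 was 0.477 to 0.619 in Cop1-guide libraries with IFNγ, against 0.213 and 0.242 with Rosa26, and 0.536 to 0.849 with vehicle, against 0.0873 and 0.119 with Rosa26. Any reads counted for the wrong gene of this pair would move that ratio.

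The guides were also compared with each other, where 5.99% of genes were called with vehicle and 9.41% with IFNγ. Csf3 was lower with sgRNA2 than with sgRNA1 by -0.52 ± 0.027 with IFNγ (adjusted p 1.02e-17) and by -0.38 ± 0.028 with vehicle (4.69e-13). Cxcl1 was lower with sgRNA2 by -0.37 ± 0.032 (2.37e-11) and Cxcl5 by -0.24 ± 0.028 (3.4e-08) under IFNγ, while with vehicle Cxcl5 gave 0.07 ± 0.028 (0.183). Cxcl3 gave -0.31 ± 0.11 with IFNγ and was not called (adjusted p 0.0571), though it was called without Cop1 sgRNA2 vehicle replicate 2. With vehicle Cxcl3 was lower with sgRNA2 by -0.61 ± 0.14 (adjusted p 0.00335), a call lost without Cop1 sgRNA2 vehicle replicate 2 (0.0553). The vehicle value of Cxcl1, -0.11 ± 0.033 (adjusted p 0.0430), lost its call with DESeq2 (0.0981), with library totals (0.0619), with only the groups compared (0.117), and without any 1 of 5 libraries: Cop1 sgRNA1 vehicle replicate 1 or 2, Cop1 sgRNA2 vehicle replicate 2, Cop1 sgRNA1 IFNγ replicate 1 or Cop1 sgRNA2 IFNγ replicate 1. Cxcl2 and Csf2 were not called between the guides under either treatment, at -0.45 ± 0.17 and -0.13 ± 0.32 with IFNγ and -0.34 ± 0.20 and 0.35 ± 0.37 with vehicle. Cop1 mRNA also differed between the guides, by -0.88 ± 0.063 with IFNγ and -0.82 ± 0.062 with vehicle, and its part in these differences was not tested.

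Genes of the pathways that induce these factors were counted from lists by role. Of all genes tested, 20.7% were called lower and 19.8% higher in Cop1-guide cells under IFNγ, and 19.2% and 16.6% with vehicle. IFNγ lowered 16.1% and 16.2% in Cop1-guide and Rosa26 cells, and raised 18.1% and 16.6%. The response was called lower in Cop1-guide than in Rosa26 cells for 2.36%. The limit given above for such differences with the guides as replicates holds for the lists below. Of 14 NF-kB factors and inhibitors, 11 were lower and 0 higher in Cop1-guide cells than in Rosa26 cells under IFNγ, with a median log2 change of -0.35. Rela, an activating subunit, averaged 125 and 129 CPM with sgRNA1 and sgRNA2, against 173 CPM with Rosa26 (log2 -0.44 ± 0.033, adjusted p 1.12e-14), and Nfkbiz, an inducer of secondary NF-kB targets, averaged 159 and 168 CPM, against 208 CPM (-0.35 ± 0.033, 1.22e-11). With vehicle 6 were lower and 1, the inhibitor Tnfaip3, was higher at 0.23 ± 0.029 (1.49e-08), and with the guides as replicates these counts became 1 and 0. IFNγ raised 7 of the 14 in Cop1-guide cells and 11 in Rosa26 cells, counts that became 3 and 6 with the guides as replicates, and the response of 7 was smaller in Cop1-guide cells, among them Tnfaip3 (-0.38 ± 0.040, adjusted p 4.27e-09) and Nfkbia (-0.33 ± 0.052, 2.54e-05).

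Among 12 tested C/EBP and AP-1 family genes, 9 were lower and 0 higher in Cop1-guide cells under IFNγ (median -0.66), and 7 were lower and 2 higher with vehicle (median -0.41), the 2 becoming 1 with DESeq2, with library totals or with the guides as replicates. Atf3, a stress-induced repressor and activator, averaged 47.2 and 52.1 CPM with sgRNA1 and sgRNA2, against 162 CPM with Rosa26, under IFNγ (-1.71 ± 0.049, adjusted p 1.97e-28). Cebpd averaged 20.9 and 22.8 CPM, against 51.7 CPM (-1.24 ± 0.071, 2.77e-18), and Junb 246 and 262 CPM, against 495 CPM (-0.97 ± 0.027, 4.68e-29). IFNγ raised 8 and lowered 1 of the 12 in Cop1-guide cells and raised 10 in Rosa26 cells, and 5 responses were smaller in Cop1-guide cells, including Junb (-0.51 ± 0.039, 1e-12) and Jun (-0.60 ± 0.056, 2.3e-10).

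Of 11 genes for the decay or stability of cytokine mRNAs, 5 were lower and 2 higher in Cop1-guide cells under IFNγ, and 4 lower and 2 higher with vehicle, with medians of -0.16 and -0.05. Zc3h12a, the RNase Regnase-1, was among those lower under IFNγ. It averaged 64.7 and 63.4 CPM with sgRNA1 and sgRNA2, against 115 CPM with Rosa26 (-0.84 ± 0.044, adjusted p 2.01e-19). Zfp36, or tristetraprolin, averaged 28.1 and 32.3 CPM under IFNγ, against 46.5 CPM (-0.62 ± 0.066, 2.25e-10). With vehicle Zfp36 lay above Rosa26, at 12.6 and 13.2 CPM with sgRNA1 and sgRNA2, against 10.3 CPM. Its IFNγ response was smaller in Cop1-guide cells by -0.96 ± 0.11 (4.54e-08). The 2 called higher with vehicle included Hnrnpd, at 290 and 305 CPM with sgRNA1 and sgRNA2, against 259 CPM with Rosa26 (0.20 ± 0.029, adjusted p 4.5e-07). IFNγ raised 5 and lowered 1 of the 11 in Cop1-guide cells, and raised 3 and lowered 1 in Rosa26 cells. With the guides as replicates the 2 genes called higher were not called under either treatment, and 3 were lower with IFNγ and 2 with vehicle.

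Of 17 tested cytokines that induce these factors and their receptors, 5 were lower and 2 higher in Cop1-guide cells under IFNγ, and 5 lower and 1 higher with vehicle. Il1a, a cytokine that acts through NF-kB, averaged 129 and 133 CPM with sgRNA1 and sgRNA2, against 219 CPM with Rosa26, under IFNγ (-0.74 ± 0.037, adjusted p 4.34e-20), and Il17rc, a receptor chain for IL-17, 38.0 and 37.0 CPM, against 47.3 CPM (-0.33 ± 0.060, 1.33e-05). IFNγ raised 7 and lowered 1 in Cop1-guide cells, raised 7 and lowered 3 in Rosa26 cells, and the response of Il1a was smaller in Cop1-guide cells (-0.41 ± 0.058, 2.71e-06). With the guides as replicates 2 were lower and 0 higher under either treatment.

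Of 7 tested growth factors and cytokines of related families, 5 were lower in Cop1-guide cells under IFNγ, while with vehicle 1, Csf1, was lower and 2, Lif and Il34, were higher. Neither higher call was made without Rosa26 vehicle replicate 1 or without replicate 2. With the guides as replicates, 2 were lower under IFNγ, and 1 was lower and 0 higher with vehicle. Csf1, the macrophage growth factor, averaged 375 and 396 CPM with sgRNA1 and sgRNA2, against 443 CPM with Rosa26, under IFNγ (-0.20 ± 0.028, adjusted p 8.25e-08), a call not made with the guides as replicates (0.0805). Il11, an IL-6 family cytokine, averaged 2.46 and 2.49 CPM, against 6.03 CPM (-1.29 ± 0.19, 3.66e-07). IFNγ raised 4 and lowered 1 of the 7 in Cop1-guide cells and raised 5 and lowered 1 in Rosa26 cells. Of 5 other attractants of neutrophils and myeloid cells that were tested, 1 was higher and 2 lower in Cop1-guide cells under IFNγ, and 1 higher (Mif) and 1 lower (Ccl4) with vehicle. Neither vehicle call was made without Rosa26 vehicle replicate 1, without replicate 2, or with the guides as replicates. The Mif call was also lost without Cop1 sgRNA1 vehicle replicate 1 or with library totals, and the count lower went to 0 with only the groups compared and to 3 without Cop1 sgRNA2 vehicle replicate 2. S100a8, a subunit of calprotectin, rose with IFNγ, by 1.61 ± 0.18 (8.29e-10) in Cop1-guide cells and 2.13 ± 0.25 (3.16e-09) in Rosa26 cells. Mif, a macrophage cytokine, was higher in Cop1-guide cells under IFNγ by 0.24 ± 0.023 (adjusted p 1.01e-11), and Anxa1 was lower by -0.06 ± 0.022 (0.0189). Ccl4, a chemokine, was called lower under IFNγ (adjusted p 7.47e-08) at 0.0435 and 0.0941 CPM with sgRNA1 and sgRNA2, against 1.60 CPM with Rosa26. The Anxa1 call did not hold without Rosa26 IFNγ replicate 1 or Cop1 sgRNA2 IFNγ replicate 1, or with the guides as replicates (highest adjusted p 0.539).

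Across the 12 libraries, the genes most like each of the 6 in log2 CPM were ranked among 9059 genes by Pearson r, which here mostly reflects the 6 group means and carries no test. Sod2, mitochondrial superoxide dismutase, was most like Cxcl1 (r 0.992), at 124 and 110 CPM with sgRNA1 and sgRNA2, against 153 CPM with Rosa26, under IFNγ, followed by Ier3 (0.974) and Cldn12 (0.970). Hmox1, the stress-induced haem oxygenase, was most like Cxcl5 (r 0.985), at 34.1 and 28.1 CPM, against 68.5 CPM, followed by Gch1 (0.980) and Gtpbp2 (0.977). Vamp1 (0.985), Npc2 (0.984) and Lcn2 (0.984), the last a neutrophil-gelatinase-associated lipocalin, were most like Csf3. For Cxcl3 these were Eea1 (0.987), Mcub (0.980) and Tab3 (0.976), for Cxcl2 Senp3 (0.947), Gorab (0.943) and Hnrnpdl (0.942), and for Csf2 1810032O08Rik (0.958), Nabp1 (0.941) and Birc3 (0.941). No gene appeared in the first 3 of more than 1 of the 6. The 6 genes themselves were left out of that search. Among them r ran from 0.316 for Cxcl2 with Cxcl5 to 0.961 for Cxcl3 with Cxcl5.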

How the data were processed

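Per the labels' protocols, RNA was extracted with a QIAGEN kit and libraries were made from total RNA with an Illumina TruSeq kit. The submitters' processing notes name STAR 2.4.0, HTSeq with no version, DESeq2 1.10 and the build mm10. The authors deposited raw whole-number counts per gene for all 12 libraries in 1 table. The row of totals was left out; columns of other samples numbered 0.

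Replicates of every group differed beyond sampling noise (chi-square per degree of freedom 2.33 to 4.21 over the genes of the pair), so each was used. The test was edgeR's quasi-likelihood F test (version 4.0.16, R 4.3.3), with TMM scaling, a low-count filter (minimum count 10, total 15) that left 11904 genes and all 6 members, and 1 model of 6 group means. The calls use Benjamini-Hochberg adjustment across every tested gene, with a threshold of 0.05. Cop1-guide values average both guides. CPM used TMM-scaled totals. The residual degrees of freedom were 6, and the coefficient of variation between replicates was 3.21%, so that small steps are called. The model was tested on simulated data. Intervals of log2 changes are 95%; limits for a count of 0 cover counting error only.

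Lengths came from GENCODE release M21, promoters from RefSeq (GRCm38.p6, as mm10). The members and gene lists were chosen with earlier results of these data known. Beside the 6, the text names genes among the 3 with the smallest p of those called per list and comparison, and the 3 most alike per member (mean log2 CPM of at least 3, prior count 2); receptors, markers and cluster neighbours outside that rule are named for their role. Alternatives were DESeq2 1.42.0, other scalings, no filter, a replicate block, only the groups compared, each library left out, and guides as replicates.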

Additional observations from a re-analysis of the deposited data

Results flagged for a closer look

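The following 5 results stood out because the response to IFNγ in Cop1-guide cells differed from that in Rosa26 cells by a test of the difference itself. The difference of log2 responses, Cop1-guide minus Rosa26, was -0.74 for Cxcl1, -1.52 for Cxcl2, -0.27 for Cxcl5, -1.61 for Csf2 and -0.30 for Csf3. For Cxcl1 the responses were 0.63 in Cop1-guide cells and 1.38 in Rosa26 cells, and for Cxcl2 0.96 in Cop1-guide cells and 2.48 in Rosa26 cells. For Csf2 they were 0.70 in Cop1-guide cells and 2.31 in Rosa26 cells, for Csf3 0.88 in Cop1-guide cells and 1.19 in Rosa26 cells, and for Cxcl5 0.53 in Cop1-guide cells and 0.80 in Rosa26 cells. The Csf2 difference was not called without Rosa26 IFNγ replicate 1 (-1.14) or Rosa26 vehicle replicate 1 (-1.24). The limit given above for the guides as replicates holds for all 5.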

How the results depend on the processing

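Of 1428 alternative values for the 6 genes over 13 comparisons, 1373 kept their direction and their side of the threshold, 46 lost a call, 1 gained one and 8 changed direction. No shift shared by libraries of the same replicate number was seen: over 15 pairs of groups the correlation of deviations was -0.03 to 0.0446. This does not show whether such libraries were prepared together. With the replicate block the interaction called 693 genes, beside 683 without it, and no call of the 6 genes changed. With the guides as replicates, genes called between Cop1-guide and Rosa26 cells numbered 1443 with IFNγ and 902 with vehicle, beside 4828 and 4258, 1399 and 1125 for the IFNγ response in Cop1-guide and Rosa26 cells, beside 4073 and 3900, and 0 for the interaction. Of the 6 genes, 3 were then called with IFNγ, 3 with vehicle and 0 for the interaction. DESeq2 called 448 interactions. Outside the log2 changes and the counts of all genes and of the 6 genes called, 139 alternative values moved. For a count by gene list this meant by more than 1.5 times, and for a group mean CPM by its SD or more. Leaving out 1 library at a time gave 348 to 733 interactions, the lowest without Rosa26 IFNγ replicate 1 (348), Rosa26 vehicle replicate 2 (353) and Rosa26 vehicle replicate 1 (453). Leaving out libraries also changed the direction of uncalled values: Csf2 in Cop1-guide cells against Rosa26 with vehicle lay between -0.41 and 0.41, with sgRNA1 between -0.59 and 0.23 and with sgRNA2 between -0.23 and 0.59, Csf2 between the guides with IFNγ lay between -0.33 and 0.11, and the IFNγ change of Cop1 in sgRNA1 cells between -0.0621 and 0.0326. The causes were not tested. Depth limits Csf2 and Cxcl2, the genes with the fewest counts.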
